A study of Mus musculus with 1666 samples.

Results

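The cells described here are the Shh-expressing epithelial cells of mouse whisker follicles at the embryonic stage E12.0. A cell was counted as epithelial with at least 10 TPM of Krt5 (TPM, transcript abundance scaled by gene length and to a fixed total per cell), at least 10 TPM of Trp63 and under 50 TPM of Col3a1, and as Shh-expressing with at least 10 TPM of Shh. Of 1614 cells with values, 276 were from E12.0, 267 of these passed the epithelial rule, and 64 of those passed the Shh rule. They were compared with the 203 other epithelial cells of the same 3 plates. The cells were chosen by their measured Shh, Krt5, Trp63 and Col3a1, so the values of these genes are given as a description.

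The study followed whisker follicles over 7 embryonic stages by total-RNA sequencing of single cells (RamDA-seq, a full-length method that also reads RNA without a poly(A) tail). The mice were a transgenic line carrying nuclear Kikume Green-Red, a fluorescent protein that light turns from green to red. From E12.0 to E17.0 whole whisker follicles were photoconverted 1 at a time, and red cells positive for ITGA6 (an integrin of basal epithelial cells) and negative for CD31 (an endothelial marker) were sorted. At E11.5 the sort had no red gate, and those cells enter no comparison here. At E12.0 both groups share stage, line, sort and plates. The labels name no embryo, litter or position in the follicle, so E12.0 is 1 sample, its plates are not replicates, and no test was run there.

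A hair placode is an epithelial thickening that starts a follicle, and the cells at its centre are known as a signalling source. Wnt and ectodysplasin signals from epithelium and dermis set up the placode. Sonic hedgehog, secreted by placode cells, acts on nearby epithelium and dermis through the receptor Patched, and cells that receive it express Ptch1 and Gli1.

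The 64 Shh-expressing cells made up 23.97% of the E12.0 epithelial cells (95% exact binomial interval 18.98 to 29.6). They were 28 of 89 epithelial cells on plate 1 (31.5%), 12 of 91 on plate 2 (13.2%) and 24 of 87 on plate 3 (27.6%). The interval pools the cells of all plates and covers counting error only, and the shares of plates 1 and 2 lay outside it. Shh ranged from 11.3 to 189 TPM in the Shh-expressing cells, with a median of 37.9 TPM. The 3 cells just inside the threshold held 11.3, 11.4 and 12.2 TPM, and the 3 just outside held 9.71, 8.64 and 6.94 TPM. Among the other epithelial cells, 122 were listed at 0, 53 held Shh above 0 and under 1 TPM, and 28 held 1 to under 10 TPM. The gene lies at chr5:28456815-28467256 on the minus strand (mm10).

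The other marker genes of the placode centre were tied to the same cells. Edar, the receptor of ectodysplasin (chr10:58600789-58675654, minus strand), reached 10 TPM in 62 of 64 Shh-expressing cells (96.9%) and in 65 of 203 other epithelial cells (32.02%). Bmp2, a secreted bone morphogenetic protein (chr2:133552159-133562885, plus strand), did so in 53 of 64 (82.8%) against 13 of 203 (6.404%). Notum, a secreted enzyme that inactivates Wnt proteins by removing their lipid (chr11:120653788-120661175, minus strand), did so in 34 of 64 (53.1%) against 6 of 203 (2.96%). Most Shh-expressing cells therefore carried several of these markers: 32 held all 3 at 10 TPM or more, 23 held 2, 7 held 1 and 2 held none. Of the other epithelial cells 4 held all 3, 8 held 2, 56 held 1 and 135 held none. Where in the placode the cells lay was not measured.

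**Figure D1:**
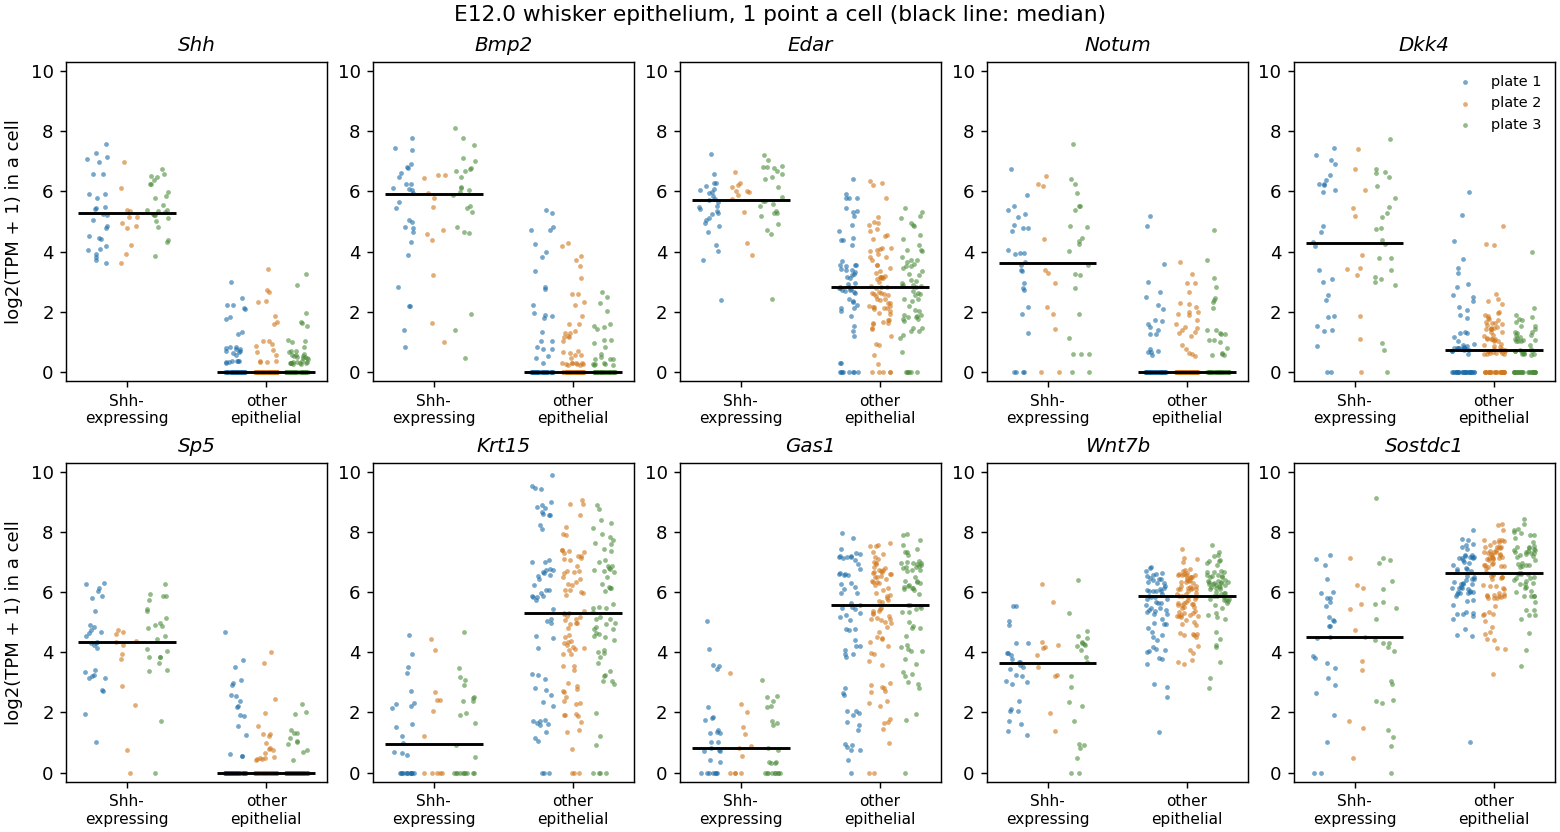
Levels of 10 genes in single E12.0 cells as log2(TPM + 1), with Shh-expressing cells left and other epithelial cells right in each panel, 1 point a cell coloured by plate and a black line at the median. Bmp2, Edar and Notum stand higher in the 64 Shh-expressing cells, and Gas1 and Krt15 stand near 0 in most of them.

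Few cells carried several markers of another cell type: 61 of the 64 Shh-expressing cells held under 3 markers at 10 TPM of each of 7 lists of other cell types (fibroblast, dermal condensate, endothelial, nerve, melanocyte, Merkel and immune). Summed TPM of the fibroblast list ran from 0.928 to 59.7 (median 10.8) in Shh-expressing cells and from 0.349 to 84.9 (median 22.8) in the others. The rule for epithelial cells held Col3a1, a fibroblast collagen, under 50 TPM in both groups. Low fibroblast values are thus partly fixed by the choice of cells. The nerve and Schwann cell list ran from 9.44 to 140 (median 30.2) in Shh-expressing cells and from 1.72 to 125 (median 17.5) in the others. The medians of these other lists and of the periderm and suprabasal lists lay between 8.99 and 49.6 TPM in Shh-expressing cells and between 6.26 and 56.9 TPM in the others. Shh-expressing cells had slightly more genes at 1 TPM or more, with a median of 20187 against 19207, and the order was the same on each plate. The part of that difference in the results below was not tested. With cells limited to the middle range of genes detected, 186 genes were 2-fold higher and 133 lower in place of the 251 and 112 given next. Only 146 of the higher and 72 of the lower genes were shared by both settings. The limit left 31 Shh-expressing and 102 other cells, with 8 Shh-expressing cells on the smallest plate.

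Across the E12.0 epithelium, 26133 genes were compared by the difference of log2(mean TPM + 1) within each plate, averaged over the 3 plates. A gene is called 2-fold higher or lower below when this difference passed 1 in the mean and on every plate. By that rule 251 genes were higher in Shh-expressing cells (0.960% of those tested) and 112 were lower (0.429%), with a median difference of 0.08 over all genes. Leaving out plate 1, 2 or 3 gave 435, 404 and 364 higher genes, since the rule then asks for agreement of fewer plates. The lower genes were 209 without plate 1 and 206 without plate 3, and the count without plate 2 lay between 112 and these. The 15 named genes with the largest positive differences were Shh itself, Bmp2, Dkk4, Sp5, Gad1, Notum, Lhx2, Pthlh, Sox13, Cyfip2, Scube1, Prss23, Tll1, Flrt3 and Slco3a1. The 10 with the largest negative ones were Krt15, Gas1, Lmo1, Nell2, Galnt18, Mt1, Igfbp5, Pdpn, Wnt7b and Ldhb.

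**Figure D2:**
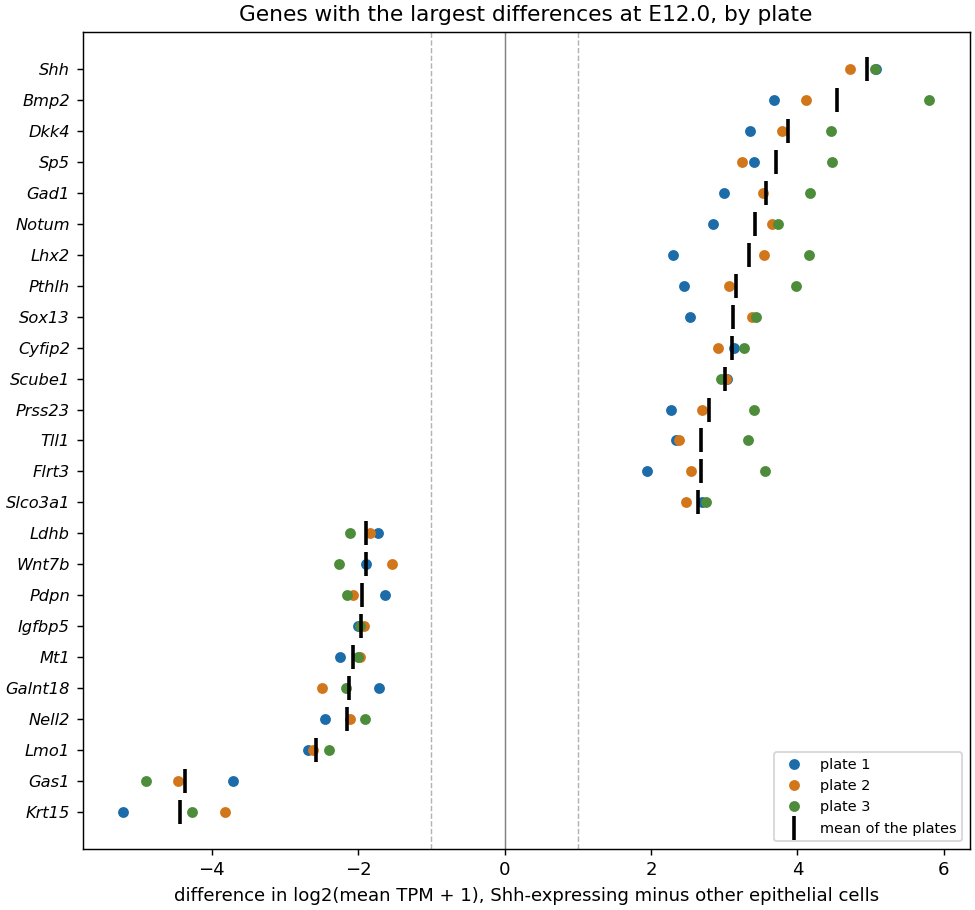
Difference in log2(mean TPM + 1), Shh-expressing minus other epithelial cells, for the 25 named genes at E12.0, with 1 point a plate, a black tick at the mean of the 3 plates and dashed lines at a 2-fold difference. Each gene lies on the same side on every plate because the rule that named it asked for this. Values run from Shh, which chose the cells, and Bmp2 (log2 difference 4.53) to Krt15 (-4.43).

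Of the secreted ligands on the lists other than Shh, Bmp2 had the highest difference. It averaged 63.4, 42.3 and 82.5 TPM on plates 1, 2 and 3 in Shh-expressing cells, against 4.01, 1.498 and 0.499 TPM in the other epithelial cells. Single cells ran from 0.380 through a median of 59.4 to 277 TPM in Shh-expressing cells and from 0 through a median of 0 to 40.3 TPM in the others. The ranges over cells overlapped, but no plate mean did, and the log2 difference was 4.53 (3.69, 4.12 and 5.80 by plate). Pthlh, parathyroid hormone-related protein, averaged 39.4 against 3.73 TPM, a log2 difference of 3.16. Tgfb2, a transforming growth factor, averaged 26.1 against 3.995 TPM (log2 difference 2.36), and Fgf20, a placode signal to the dermis, 4.13 against 0.247 TPM (1.94). Fgf20 was thus low in both groups, while Bmp2, Pthlh and Tgfb2 were well detected in Shh-expressing cells.

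The Wnt ligands differed in both directions. Of 14 Wnt ligand and secretion genes tested, 2 were 2-fold higher in Shh-expressing cells and 4 lower, with a list median of -0.02 beside 0.08 over all genes. Wnt10b, a ligand known from early placodes, averaged 40.3, 31.1 and 50.4 TPM by plate in Shh-expressing cells, against 13.9, 12.8 and 10.6 TPM in the others (log2 difference 1.61). Wnt5a, a ligand of mainly beta-catenin-independent signalling, averaged 6.85 against 1.54 TPM (1.63). Wnt7b, an epidermal ligand, was low where Wnt10b was high: it averaged 12.8, 20.2 and 14.6 TPM by plate in Shh-expressing cells, against 49.9, 60.6 and 73.9 TPM in the others (-1.90). The other lower ligands were Wnt9b (7.12 against 22.6 TPM), Wnt4 (6.29 against 15.9 TPM) and Wnt3a (0.420 against 4.54 TPM). Wnt6, the ligand with the highest mean of the list in both groups, averaged 61.2 against 62.8 TPM, with a difference of -0.03.

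Of 8 genes of hedgehog ligand handling, 2 were 2-fold higher in Shh-expressing cells: Shh itself, which chose them, and Scube1, of a family of secreted proteins that includes a carrier for Shh release. Scube1 averaged 25.9, 28.6 and 20.7 TPM by plate in Shh-expressing cells, against 2.28, 2.63 and 1.81 TPM in the others (log2 difference 3.005). Its relative Scube3 averaged 42.5 against 25.8 TPM (0.70), and Disp1, the transporter that frees the ligand, differed by 0.50.

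Of 12 genes of hedgehog reception and response, none was 2-fold higher and 2 were lower, both co-receptors. Gas1, a membrane-anchored co-receptor (chr13:60174405-60177365, minus strand), averaged 3.64, 1.76 and 1.56 TPM by plate in Shh-expressing cells, against 59.9, 60.03 and 74.9 TPM in the others. It reached 10 TPM in 4 of 64 Shh-expressing cells (6.25%) and 161 of 203 others (79.3%), and its log2 difference was -4.36. Boc, another co-receptor, averaged 5.58 against 17.8 TPM (-1.52), and the third, Cdon, 17.8 against 28.5 TPM (-0.66, short of the rule). Both lower co-receptors were thus lower in the cells with message of the ligand.

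The response genes Ptch1 and Gli1 were not 2-fold apart. Ptch1, the receptor and a target, averaged 97.2, 99.7 and 93.9 TPM by plate in Shh-expressing cells, against 154, 137 and 137 TPM in the others (log2 difference -0.55). Gli1, a transcription factor and target, averaged 58.3 against 56.1 TPM (0.05). At 10 TPM or more, Gli1 was seen in 64 of 64 Shh-expressing cells and 197 of 203 others, and Ptch1 in 64 of 64 and 200 of 203. Message of hedgehog targets was therefore present in nearly every epithelial cell on these plates, with or without Shh. Smo (-0.17), Gli2 (-0.38) and Gli3 (-0.20) differed by less than the rule asks.

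Many Wnt target genes and secreted Wnt inhibitors were higher. Of 18 tested, 9 were 2-fold higher in Shh-expressing cells and 1 was lower, with a median of 1.35 beside 0.08 over all genes. On every plate 14 of the 18 were higher by any amount, as were 31.3% of all genes tested, and 2 were lower, Sostdc1 and the repressor Tcf7l1 (-0.78). Dkk4, a secreted inhibitor, averaged 43.7, 38.6 and 41.8 TPM by plate in Shh-expressing cells, against 3.36, 1.86 and 0.941 TPM in the others (log2 difference 3.87). Sp5, a zinc-finger transcription factor known as a direct Wnt target, averaged 26.9, 14.03 and 28.3 TPM against 1.62, 0.583 and 0.321 TPM (3.71). Notum averaged 19.7, 24.1 and 29.6 TPM against 1.87, 0.992 and 1.29 TPM (3.42). Lef1, the nuclear partner of beta-catenin, was abundant in both groups and higher in Shh-expressing cells, at 272, 327 and 351 TPM by plate against 88.5, 106 and 65.6 TPM (1.87). Axin2, a feedback inhibitor, averaged 36.5 against 11.04 TPM (1.64). The other 4 were Wif1, a secreted Wnt-binding protein (36.1 against 6.61 TPM, 2.30), Nkd1 (23.9 against 5.66 TPM, 1.92), Apcdd1, a membrane inhibitor (77.96 against 21.8 TPM, 1.76), and Dkk3 (23.1 against 7.14 TPM, 1.64).

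The 1 lower gene past the rule was Sostdc1, a secreted inhibitor of Wnt and BMP signalling. It averaged 38.8, 37.1 and 58.2 TPM by plate in Shh-expressing cells, against 95.9, 113 and 127 TPM in the others (log2 difference -1.32). Among 19 Wnt receptor genes, Lrp4, a co-receptor that binds Sostdc1, was the single one past the rule, at 85.3 against 26.03 TPM (1.68), and the list median was 0.32.

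The windows of 250 bases before the start are shown for 2 of the higher genes, since they hold the core letters that Lef and Tcf factors bind, CTTTGA, read as TCAAAG from the other strand. Capitals mark these letters. The sequences are RefSeq's on GRCm38.p6, written 5′ to 3′ on the strand of the gene, at chr2:70474673-70474922 (plus strand) for Sp5 and chr10:58675697-58675946 (minus strand) for Edar.
Sp5: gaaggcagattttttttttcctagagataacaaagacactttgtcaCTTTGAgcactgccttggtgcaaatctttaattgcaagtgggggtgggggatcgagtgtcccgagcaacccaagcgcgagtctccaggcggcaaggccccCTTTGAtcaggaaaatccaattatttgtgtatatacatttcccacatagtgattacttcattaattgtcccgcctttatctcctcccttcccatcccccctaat
Edar: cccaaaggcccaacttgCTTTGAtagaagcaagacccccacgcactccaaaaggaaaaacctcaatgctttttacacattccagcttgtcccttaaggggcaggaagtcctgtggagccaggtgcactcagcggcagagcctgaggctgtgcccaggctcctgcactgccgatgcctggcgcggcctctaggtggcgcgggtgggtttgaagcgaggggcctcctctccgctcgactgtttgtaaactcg
In Sp5 the nearer match starts 104 bases before the start of the gene and the other lies farther upstream. In Edar the match starts 233 bases before the start used for its window. That start lies somewhat upstream of the Edar gene start given above. Of 12 genes looked up (Shh, Edar, Bmp2 and the 9 higher Wnt genes), 6 had a window in the table, with 9 windows in all, and 3 of the 9 held the letters on either strand: those of Sp5, Edar and 1 of 4 for Lef1. Over all 32851 windows of this length 13.8% held them. A match is a description of letters, not of a binding site.

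Of 12 ectodysplasin pathway genes, Edar was the single one past the rule. It averaged 49.1, 57.6 and 68.5 TPM by plate in Shh-expressing cells, against 13.48, 11.4 and 9.30 TPM in the others (log2 difference 2.26). Its cells ran from 4.26 through a median of 51.8 to 151 TPM, against 0 through 5.999 to 83.9 TPM, so the groups overlapped cell by cell. Nfkbia, a target and inhibitor of NF-kappaB downstream of Edar, averaged 67.8 against 36.8 TPM (0.86). Relb (0.85), Nfkb2 (0.80) and the adaptor Edaradd (0.61) were also positive and short of the rule, and the list median was 0.37.

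BMP response genes were partly higher with Bmp2. Of 8, 3 passed the rule: Msx1 (7.43 against 0.945 TPM, log2 difference 2.10), Msx2 (7.58 against 1.95 TPM, 1.48), both homeobox factors, and Smad7, an intracellular inhibitor (49.99 against 17.5 TPM, 1.46). Id1 (0.25), Id2 (0.07) and Id3 (0.19), the classical early targets, did not. Fst, the antagonist follistatin, averaged 18.2 against 4.88 TPM (1.66), and the receptor Bmpr1b was lower, at 2.94 against 8.40 TPM (-1.30). Of 17 Fgf pathway genes, Fgf20 and Dusp6, a phosphatase induced by Fgf signalling (130 against 39.3 TPM, 1.70), passed, while the receptor Fgfr2 averaged 231 against 353 TPM (-0.60). None of 14 Notch pathway genes passed in either direction (median 0.00).

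Of 14 placode transcription factors 3 were 2-fold higher in Shh-expressing cells, Lhx2, Cux1 and Sox21, with a list median of 0.83. Lhx2, a LIM homeobox factor of follicle progenitors, averaged 101, 161 and 209 TPM by plate in Shh-expressing cells, against 19.7, 12.9 and 10.7 TPM in the others (log2 difference 3.33). Sox13 averaged 88.8 against 9.32 TPM (3.12), Runx1 59.4 against 11.95 TPM (2.23) and Cux1 105 against 45.4 TPM (1.19). Sox21 was under 10 TPM in most cells of both groups: it reached 10 TPM in 12 of 64 Shh-expressing cells, while its highest level in the others was 7.82 TPM, and it averaged 5.70 against 0.605 TPM (2.08). Foxi3, an ectodysplasin-dependent placode factor, averaged 50.5 against 22.9 TPM (1.07), and Trps1 91.99 against 38.6 TPM (1.26). Foxi3 and Trps1 missed the rule because not every plate passed 1.

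Genes of the placode edge and of later stem cells were split. Krt15, a basal keratin and stem cell marker (chr11:100131758-100135928, minus strand), averaged 3.03, 4.57 and 3.49 TPM by plate in Shh-expressing cells, against 148, 77.6 and 85.6 TPM in the others, a log2 difference of -4.43. It reached 10 TPM in 7 of 64 Shh-expressing cells (10.9%) and in 149 of 203 others (73.4%). Barx2, a homeobox factor, was also lower (0.612 against 3.55 TPM, -1.48). Sox9, a stem cell factor, averaged 6.22, 18.2 and 5.10 TPM by plate in Shh-expressing cells, against 10.5, 13.9 and 14.2 TPM in the others. Its plates disagreed in sign (-0.67, 0.36 and -1.31), and the positive plate rested on 1 cell with 101 TPM of Sox9 and the lowest Shh of all members (11.3 TPM). Without that cell, an alternative chosen after seeing the data, the other 11 cells of plate 2 averaged 10.6 TPM of Sox9, the plate's difference was -0.36 and the mean of the plates -0.78, beside -0.54 with it. Sox9 reached 10 TPM in 13 of 64 Shh-expressing cells (20.3%) and 76 of 203 others (37.4%). Of the 15 genes of this list 2 were higher, Sox13 and Runx1, and 2 lower, Krt15 and Barx2, with a median of 0.20.

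The other epithelial cells were then split at 10 TPM of Sox9 into 76 Sox9-high and 127 Sox9-low cells, so Sox9 itself chose these classes. Several genes formed a series with Sox9-high cells in the middle. Lhx2 averaged 157 TPM in Shh-expressing, 24.1 in Sox9-high and 8.54 in Sox9-low cells, and Edar 58.4, 15.4 and 9.03 TPM. Krt15 ran the other way, at 3.70, 33.8 and 148 TPM, and so did Gas1 at 2.32, 45.4 and 76.9 TPM and Wnt7b at 15.9, 47.6 and 69.95 TPM. Bmp2 (62.7, 2.47 and 1.69 TPM) and Wnt10b (40.6, 12.7 and 12.4 TPM) showed almost no step between both Sox9 classes, and Foxi3 (50.5, 35.7 and 15.4 TPM) was closer in Sox9-high to its level in Shh-expressing cells. Sostdc1 was highest in the Sox9-high cells, at 44.7, 130 and 101 TPM.

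Among genes outside these pathways, Gad1, the enzyme that makes GABA, was detected in every Shh-expressing cell. It reached 10 TPM in 64 of 64 Shh-expressing cells and in 32 of 203 others, and averaged 47.6, 82.5 and 78.7 TPM by plate against 5.09, 6.20 and 3.42 TPM (log2 difference 3.57). Cyfip2, a subunit of the actin-regulating WAVE complex, averaged 34.6 against 3.19 TPM (3.11), and Flrt3, a cell-surface protein that binds guidance receptors, 50.5 against 7.26 TPM (2.68). The secreted proteases Prss23 (85.5 against 11.3 TPM, 2.80) and Tll1 (20.7 against 2.46 TPM, 2.68) and the transporter Slco3a1 (37.2 against 5.15 TPM, 2.64) complete the upper end.

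At the lower end, Igfbp5, a secreted binder of insulin-like growth factors, averaged 34.3, 35.6 and 37.3 TPM by plate in Shh-expressing cells, against 140, 138 and 150 TPM in the others (log2 difference -1.97). Lmo1, a LIM-only factor, averaged 4.24 against 29.9 TPM (-2.57), Nell2, a secreted protein, 6.72 against 33.6 TPM (-2.16), and Galnt18, of the glycosyltransferase family, 4.96 against 24.4 TPM (-2.12). Mt1, a metallothionein, averaged 14.3 against 62.5 TPM (-2.08), Pdpn, a membrane glycoprotein, 5.74 against 25.4 TPM (-1.95), and Ldhb, a lactate dehydrogenase subunit, 27.3 against 103 TPM (-1.89). The means of these genes stayed above 0 in Shh-expressing cells. How many single cells held none of each message is not given here.

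Of 19 signals to the dermis, Sema3a, a guidance molecule (71.5 against 164 TPM, -1.19), and Igfbp5 were lower and Tgfb2 was higher. Of 6 keratins tested 3 were lower, Krt19 (1.21 against 15.6 TPM, -2.93), Krt7 (5.15 against 14.2 TPM, -1.33) and the rule gene Krt5, and Krt14, the basal keratin partner of Krt5, averaged 370 against 297 TPM (0.31). Of 25 integrin and basement membrane genes 3 were higher: Nid1 (13.4 against 2.84 TPM, 1.95), Frem1 (103 against 41.2 TPM) and Itga9 (11.1 against 4.36 TPM). Of 18 adhesion genes Cldn7, a tight junction protein, was higher (16.7 against 6.92 TPM, 1.15). None of 11 planar polarity and 19 actin genes passed the rule. Of 5 nerve and Schwann cell markers tested 1 was higher, Tubb3, a neuronal tubulin (16.2 against 3.93 TPM), and of 4 fibroblast markers 1 was lower, Dcn, a proteoglycan (1.22 against 13.9 TPM). None tested from the other lists of other cell types passed the rule. Beside them the glial factor Sox10 averaged 1.11 against 1.22 TPM and the fibroblast collagen Col1a1 2.83 against 2.67 TPM.

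Cell cycle genes were lower in the Shh-expressing cells as a group, though none passed the 2-fold rule. All 15 S phase genes and 14 of 15 G2/M genes were lower on every plate, against 18.0% of all genes tested; the exception was Kif11 on plate 3. The medians were -0.74 for S phase and -0.87 for G2/M, beside 0.08 over all genes. The summed level of the G2/M list had a median of 92.7, 68.6 and 84.8 TPM by plate in Shh-expressing cells, against 270, 315 and 267 TPM in the others, and the S phase list 730, 644 and 732 TPM against 1243, 1240 and 1463 TPM. Mki67, a marker of cycling cells, reached 10 TPM in 21 of 64 Shh-expressing cells (32.8%, exact interval 21.6 to 45.7) and in 147 of 203 others (72.4%, 65.7 to 78.4). Cdk1, the mitotic kinase, did so in 37.5% of Shh-expressing cells and 76.8% of the others, and Rrm2, a subunit of ribonucleotide reductase, in 65.6% and 94.1%. The intervals cover counting error only. Ccnb1 reached 10 TPM in 16 of 64 Shh-expressing cells and in 103 of 203 others. Mcm2, Pcna and Top2a reached 10 TPM in most cells of both groups. Mcm2, of the replication helicase, and Pcna, the replication clamp, each reached it in 58 of 64 Shh-expressing cells, against 203 of 203 and 201 of 203 others. Top2a, a topoisomerase, did so in 58 of 64 (90.6%) against 94.1% of the others, and on plate 1 in 89.3% against 88.5%, so its share hardly differed while its mean was 63.5 against 81.6 TPM over all cells. None of 12 cyclin and CDK inhibitor genes passed the rule, though Ccnd3 averaged 75.9 against 172 TPM (-1.16).

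**Figure D3:**
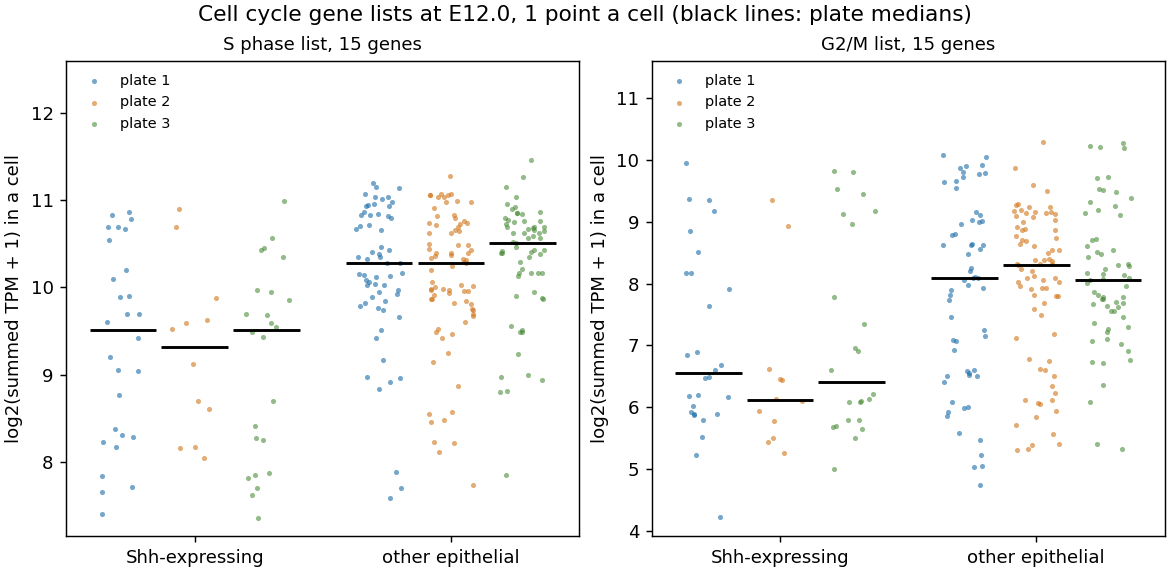
Summed level of the 15 S phase and 15 G2/M genes per E12.0 cell as log2(summed TPM + 1), Shh-expressing cells left and other epithelial cells right, with 1 point a cell coloured by plate and black lines at plate medians. Shh-expressing cells lie lower on each plate, with medians of 86.3 against 273 TPM for G2/M and 725 against 1307 TPM for S phase.

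The levels of some genes changed in steps with Shh over the whole epithelium. Bmp2, Sp5, Gas1, Krt15 and Sostdc1 were taken from the genes 2-fold apart across 10 TPM of Shh. Their change across that threshold was thus fixed by the choice, while the steps on either side of it were not part of the rule. The 267 cells were pooled over plates. They were binned by Shh at 0 (122 cells), above 0 and under 1 (53), 1 to under 10 (28), 10 to under 40 (34) and 40 TPM or more (30). In that order Bmp2 averaged 0.711, 1.70, 7.76, 41.7 and 94.9 TPM, and Sp5 0.328, 1.16, 2.28, 13.998 and 37.5 TPM. Gas1 averaged 73.01, 68.7, 20.4, 3.52 and 1.36 TPM, and Krt15 122, 95.6, 20.05, 4.12 and 2.78 TPM. The 28 cells just under the threshold thus lay between both groups: Gas1 and Krt15 were already well under their level at 0 Shh, while Bmp2 was still far under its level in Shh-expressing cells. Sostdc1 stepped later, at 111, 113.8, 112, 66.4 and 22.4 TPM, and stayed level up to the threshold. The hedgehog targets differed from each other. Ptch1 was lower in the upper bins, at 140, 152, 132, 104 and 88.2 TPM, and Gli1 showed no series, at 53.9, 63.1, 56.6, 60.7 and 52.9 TPM.

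**Figure D4:**
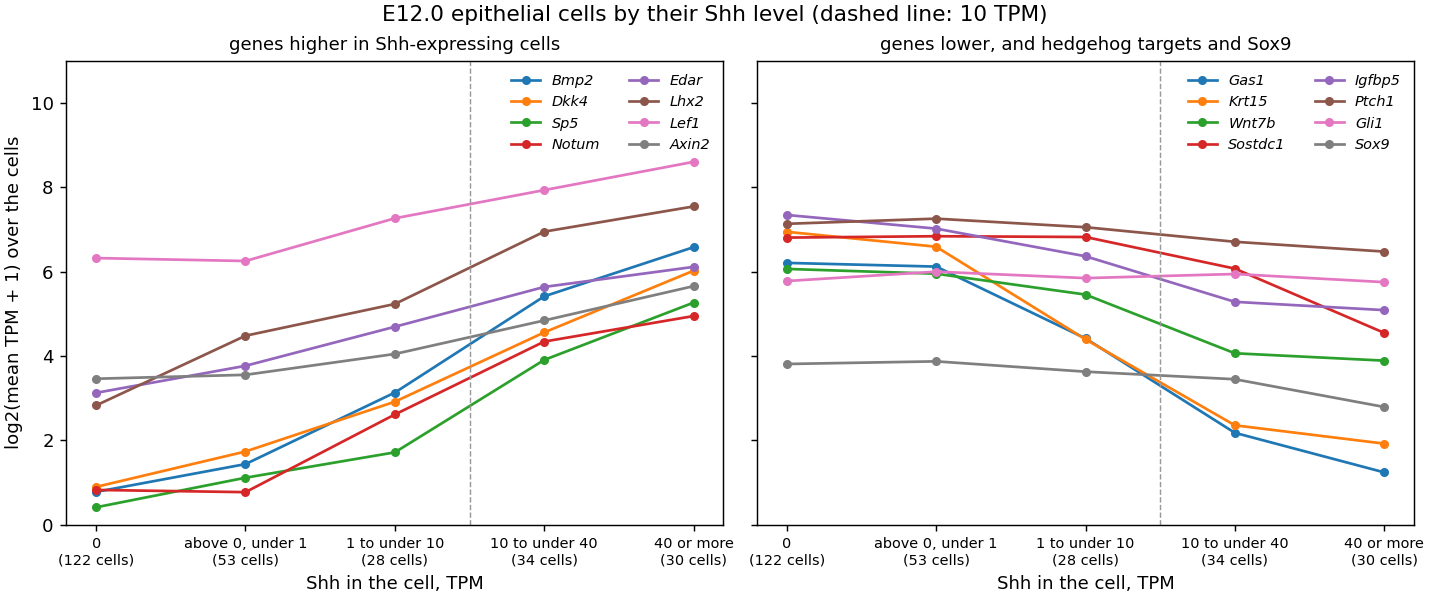
Level of 16 genes as log2(mean TPM + 1) over 5 bins of Shh in the 267 epithelial cells of E12.0, with a dashed line at 10 TPM of Shh. Bmp2, Dkk4, Sp5 and Lhx2 climb with the Shh bin, Gas1 and Krt15 are lower from 1 TPM of Shh on, and Sostdc1 from 10 TPM on. These genes were chosen for a 2-fold difference across the dashed line, and cells are pooled over plates.

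Within the 64 cells Shh still varied together with some of these genes. Spearman's correlation coefficient with Shh was 0.59 for Sp5 (0.60, 0.45 and 0.62 by plate), 0.56 for Bmp2 (0.60, 0.15 and 0.64), 0.53 for Lef1 (0.75, 0.36 and 0.12) and 0.50 for Dkk4 (0.55, 0.41 and 0.43). It was 0.35 for Edar (0.34, 0.20 and 0.52) and -0.06 for the number of genes detected (-0.08, 0.43 and -0.01). For other genes the plates differed in sign. The coefficient was 0.36 for Notum (0.51, -0.0035 and 0.42), 0.27 for Lhx2 (0.26, -0.22 and 0.54), -0.14 for Gas1 (-0.30, -0.09 and 0.15) and -0.08 for Krt15 (-0.44, 0.60 and 0.01), with the 12 cells of plate 2 behind each middle value. Cells share plates and depth, so these are descriptions; only Sp5 and Dkk4 of the 4 named first stayed above 0.4 on every plate.

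Over all 267 cells the genes most like Shh were ranked among 31077 genes by the partial Spearman correlation given the number of genes detected, averaged over plates. Shh also set both groups, and 122 of these cells were tied at 0, so the ranking partly repeats the comparison of groups. The 10 highest were Sp5 (0.73), Robo1 (0.67), Gad1 (0.66), Bmp2 (0.65), Cyfip2 (0.65), Slco3a1, Pthlh, Ascl4, Runx2 and Edar (0.63 each). Robo1, a receptor for Slit guidance proteins, averaged 40.6 against 7.77 TPM, Ascl4, a basic helix-loop-helix factor, 19.9 against 3.08 TPM, and Runx2, a Runt factor, 54.2 against 15.9 TPM. The 10 lowest were Lmo1 (-0.63), Gas1 (-0.62), H19, Phgdh and Anxa2 (-0.60 each), Ldhb and Krt15 (-0.59 each), Boc (-0.57), and Slc12a2 and Atxn10 (-0.56 each). H19, an imprinted non-coding RNA, averaged 239 against 644 TPM, and Phgdh, the first enzyme of serine synthesis, 54.1 against 161 TPM.

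The same contrast was fitted at the 5 other stages that held at least 5 Shh-expressing cells, with cells the E12.0 rule did not use. These were 12 of 53 epithelial cells at E13.0, 5 of 159 at E13.5, 11 of 144 at E14.0, 15 of 178 at E15.0 and 32 of 180 at E17.0. With the stages as the 5 samples, limma's two-sided test with Benjamini-Hochberg adjustment over 22887 genes called 532 higher (2.32%) and 1264 lower (5.52%) in Shh-expressing cells. With each cell's log2(TPM + 1) averaged in place of the log of the mean, the calls were 1062 higher and 1000 lower. Leaving out E13.5, E14.0, E15.0 or E17.0 left 1174, 378, 528 and 706 calls in all, so the count moved with each of these stages. Whether the cells of 1 stage came from several embryos is not stated, so the test measures the spread between stages. The column names of E15.0 and E17.0 share 3 plate codes and those of E13.0 and E15.0 share 1, with no statement of what the codes mean, while the fit takes the stages as independent.

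Part of the E12.0 profile was found again. Of the 250 genes higher at E12.0 apart from Shh, 200 were tested at the other stages. By limma 43 were higher there (21.5%, beside 2.32% of all genes) and 12 were lower, where 5.52% of all genes were lower. The mean kept its sign for 129 of the 200, and 60 kept it at all 5 stages. Of the 111 lower genes apart from Krt5, 90 were tested, 42 were lower (46.7%, beside 5.52%) and none higher. The mean kept its sign for 74 of the 90, and 47 kept it at all 5 stages. Bmp2 rose at the other stages by a mean log2 difference of 3.85 (SE 0.254, limma adjusted p = 0.00186, higher at 5 of 5 stages), Notum by 5.06 (SE 0.358, limma adjusted p = 0.00225) and Wnt10b by 3.79 (SE 0.292, limma adjusted p = 0.00273). Gas1 fell by 5.74 (SE 0.240, limma adjusted p = 0.000328) and Krt15 fell by 4.12 (SE 0.571, limma adjusted p = 0.0129), both at 5 of 5 stages. Edar, Scube1, Lef1, Axin2, Nkd1, Wnt5a, Msx1, Msx2, Sox21 and Cux1 also rose by limma, and Wnt7b, Sostdc1, Igfbp5, Boc, Barx2, Sema3a, Lmo1, Ldhb and Galnt18 also fell. For Sostdc1 the mean log2 difference was -6.32 (limma adjusted p = 0.000228), against -1.32 at E12.0, where 44.7 TPM remained in Shh-expressing cells.

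Other leading genes of E12.0 did not pass at the other stages. Dkk4 had a mean log2 difference of 0.52 (limma adjusted p = 0.322), Sp5 of 1.22 (limma adjusted p = 0.189), Lhx2 of 0.37 (limma adjusted p = 0.693) and Gad1 of 0.85 (limma adjusted p = 0.433). Their levels differed: Dkk4 was at 0.852 to 4.87 TPM in Shh-expressing cells of the 5 stages, while Lhx2 was at 83.5 to 454 TPM in them and at 101 to 223 TPM in the other epithelial cells. Pthlh went the opposite way, with a mean log2 difference of -4.46 (SE 0.631, limma adjusted p = 0.0136, lower at 5 of 5 stages) against 3.16 at E12.0. The cell cycle lists did too: 11 of 15 S phase and 10 of 15 G2/M genes rose by limma, with medians of 0.87 and 1.08. Mki67 rose by 1.56 (limma adjusted p = 0.013) at these stages, and it reached 10 TPM in 23 of 32 Shh-expressing and 29 of 148 other epithelial cells at E17.0. The difference between E12.0 and these stages was itself not tested, since E12.0 is 1 sample.

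**Figure D5:**
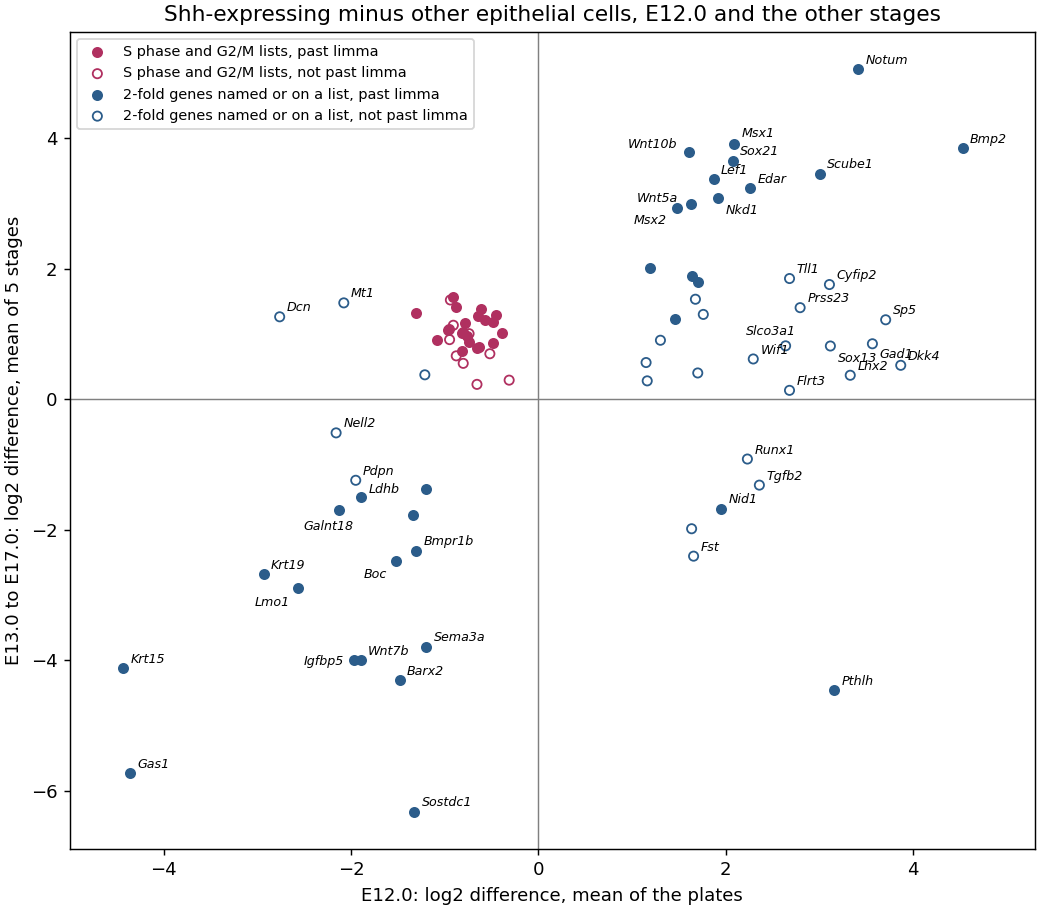
Log2 difference, Shh-expressing minus other epithelial cells, at E12.0 (horizontal, mean of 3 plates) and at the other stages (vertical, mean of 5), with filled points for genes past limma's adjusted threshold at the other stages. Bmp2, Notum and Edar are positive in both, Gas1 and Krt15 negative in both, and the cell cycle genes lie at upper left.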

How the data were processed

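Single cells were sorted directly into lysis buffer and sequenced as 1 RamDA-seq library each, per the labels' protocols, so libraries share no cell barcodes and no doublet caller was run. The authors deposited 1 table of TPM values for 49662 gene symbols in 1614 cells. The submitters' processing notes name bcl2fastq 1.0, HISAT2 2.0.4, featureCounts from Subread 1.5.0 and the build mm10; whether counting used strand is not given in the sources used here. TPM keeps no read depth, so depth is unknown; columns sum to 991213 to 999516 TPM. Of 1666 labelled cells, 52 of low quality have no values.

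From the deposited TPM, log2(TPM + 1) differences of group means were computed per plate, where the average of both groups' means reached 1 TPM. The fold change understates that of low genes. At the other stages limma 3.58.1 (R 4.3.3) was fitted to 1 difference a stage, with plates averaged at E14.0 and E17.0 and cells pooled over plates elsewhere. Calls use an adjusted p of 0.05. E11.5 held 3 Shh-expressing cells and was not used. The fit was also run on simulated data, but its recovered and false calls there are not given here.

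Cells, members and gene lists were chosen with earlier results of these data known. Named genes are the members of the lists, and the 15 highest and 10 lowest past the 2-fold rule with 20 TPM in the higher group, leaving out predicted, ribosomal protein, mitochondrial and small RNA genes and pseudogenes. The genes most like Shh are the 10 highest and 10 lowest correlations. Gene positions come from a mouse annotation matched by symbol.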

Additional observations from a re-analysis of the deposited data

Results flagged for a closer look

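Only the named genes, list genes past the 2-fold rule and other genes discussed in the text were screened gene by gene. The gene counts here therefore depend on that choice and give no share of all genes tested. At 3 genes 1 stage stood far from the other 4 of the 5 later stages. Chance flags about 1 in 20 such groups. Gas1 differed least at E13.0, with a log2 difference (Shh-expressing minus other epithelial cells) of -4.67 there. Dusp6 stood apart at E14.0 with 1.51, and Dlx3, a homeobox factor, at E13.0 with 0.81.

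For 10 of the genes screened, all 3 plates of E12.0 lay on one side and all 5 later stages on the other. The difference between E12.0 and the later stages was not tested. Pthlh, Dkk3, Runx1, Nid1 and Krt14 were higher in Shh-expressing cells on each E12.0 plate, and their mean log2 differences at the later stages were -4.46, -1.99, -0.92, -1.68 and -2.13. Mki67, Mcm2, Rrm2, Cdk1 and Ccnb1 were lower on each E12.0 plate, and their mean log2 differences at the later stages were 1.56, 1.22, 1.31, 0.90 and 1.52.

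The medians of 6 gene lists also changed side between every E12.0 plate and every later stage, again untested. At the later stages the median was 0.87 for the S phase list (-0.60, -0.68 and -0.79 on the E12.0 plates) and 1.08 for the G2/M list (-0.81, -1.16 and -0.46). It was -1.57 for stem cell and placode edge genes (0.20, 0.27 and 0.28). For the other lists the E12.0 medians lay near that of all genes, 0.08: the later median was 0.37 for Wnt ligands and secretion (-0.02, -0.00073 and -0.10), -0.30 for the Fgf pathway (0.03, 0.26 and 0.09) and -1.32 for signals to the dermis (0.01, 0.09 and 0.12).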

How the results depend on the processing

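Leaving out Shh, whose difference the choice of cells fixes, all 24 other genes named for their difference at E12.0 kept their sign under all 17 alternatives planned, and 21 stayed 2-fold apart on every plate; the exceptions were Mt1 with Shh at 1 TPM or more and Scube1 and Tll1 with Shh at 50 TPM or more. These genes were chosen for passing the 2-fold rule on every plate with 20 TPM in the higher group. Leaving out a plate, changing the filter or lowering the pseudocount could therefore not reverse them. The counts moved more. Against 251 higher and 112 lower genes at E12.0, a pseudocount of 0.1 TPM gave 421 and 180, one of 5 TPM 85 and 43, a filter at 10 TPM 104 and 46, and cells pooled over plates 614 and 265. Similar totals could hide a change of genes. The mean over cells of log2(TPM + 1) gave 198 and 112 at E12.0, of which 146 and 73 were among the 251 and 112. With Shh at 50 TPM or more 259 genes were higher and 290 lower, and with Shh at 1 TPM or more 209 were higher and 62 lower. The setting at 50 TPM left 22 Shh-expressing cells, with 2 on the smallest plate. Its counts, and the exceptions Scube1 and Tll1, therefore rest partly on a plate mean of 2 cells. Leaving out 1 plate gave 364 to 435 higher and 1.7e+02 to 209 lower genes. Against 1796 calls at the other stages, the counts were 953 with a pseudocount of 0.1 TPM, 216 with Shh at 1 TPM or more, 602 without a filter on low values and 1129 with a filter at 10 TPM (561 higher and 568 lower). Leaving out 1 stage gave 378 to 1574. The excess of lower over higher calls (1264 against 532) turned into 1062 higher and 1000 lower with the mean over cells of log2(TPM + 1), and the median difference over all genes was 0.02 in place of -0.08. Median-of-ratios scaling gave 480 higher and 1500 lower. Among the list and named genes, none that was called changed sign. The other called genes were not checked for this. Among list and named genes at E12.0, 661 values moved by more than the SD of the plates and 5443 did not. At the other stages, 497 values were weaker and 112 stronger of those recomputed, and 3955 stayed called or stayed uncalled. An uncalled value could change sign and still count among the 3955. Both comparisons were taken within plates or within stages. No paired analysis was possible because, beyond that, the labels give the Shh-expressing and other cells no replicate numbers that match one cell to another. With 1 sample and unknown read depth, the E12.0 differences carry no error beyond the spread of 3 plates.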
